A study of Sus scrofa with 24 samples.

Results

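NT5E, PNPLA3, IL15 and KIAA1549L are 4 of the 13463 genes in the deposited liver tables and 4 of the 8754 with enough reads to be tested. They were selected on their measured liver levels in these same libraries: a different level in uncastrated boars without Sustanon than in the other animals, and no clear Sustanon effect. Levels and differences that bear on those criteria are therefore given as a description, without a test. The second criterion held for IL15 in castrated boars and sows, while in uncastrated boars IL15 was lower in both livers with Sustanon. It held only in part for the other 3 genes: in castrated boars and sows, NT5E was lower and PNPLA3 and KIAA1549L were higher in some or most Sustanon livers than in the untreated ones.

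Liver mRNA of 24 pigs was sequenced, 1 library per pig, in 9 groups of 2 or 3 pigs. Castrated boars, sows and uncastrated boars each received Sustanon, Myodin or no treatment. Sustanon is a mixture of testosterone esters and was given in the muscle at 4 mg per kg body weight (250 mg per mL). Myodin is an ester of nandrolone, a testosterone analog without the methyl group at carbon 19, and was given at 5 mg per kg (25 mg per mL). By the study's methods each treated pig had 5 injections, 4 days apart, the experimental groups had also had a single injection in an earlier preliminary phase, at a lower dose for Myodin, and the animals were commercial hybrid growing pigs of one trader, kept in separate pens by group, so that pen and treatment cannot be told apart. The females are called sows in the labels, although the methods describe young animals. The uncastrated boars without Sustanon were 5 pigs: 2 untreated (numbers 25 and 27) and 3 with Myodin (numbers 22, 23 and 24). They are called the 5 boars here. The other 19 pigs were 6 untreated castrated boars and sows, 5 castrated boars and sows with Myodin, 6 castrated boars and sows with Sustanon and 2 uncastrated boars with Sustanon.

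The libraries held 9267780 to 14017276 counts. Albumin, APOA1 and the other 3 hepatocyte markers in the tables were abundant in all 24 libraries (summed 102871 to 240246 CPM, counts scaled to a common library total), as in liver. The Y-linked transcripts EIF1AY and KDM5D went against the sex label in 3 untreated libraries: castrated boar 15 had 1 and 0 counts, sow 16 had 476 and 35, and sow 18 had 434 and 95. All 3 belong to the 6 untreated castrated boars and sows, of which 4 had such counts where 3 are labelled castrated boars. The cause of these counts was not tested. Without the 3 libraries, the log2 fold change between boars and castrated boars and sows, all without Sustanon, was -2.16 for NT5E, 2.81 for PNPLA3, 1.45 for IL15 and 2.23 for KIAA1549L, beside -2.08, 2.80, 1.41 and 2.26 with them. In the deposited headers, sow + Sustanon 6 carries the group number of the castrated boars with Sustanon (8, where the other sows with Sustanon have 9), while its EIF1AY and KDM5D counts were both 0. In bulk tissue, fewer cells of a type and less RNA per cell cannot be told apart.

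The 4 genes have unrelated products. NT5E (CD73) is an enzyme on the cell surface that makes adenosine from AMP, downstream of enzymes that break down extracellular ATP. PNPLA3 (adiponutrin) is a lipid droplet protein of the patatin-like phospholipase family, which in humans is known for a variant tied to fatty liver, and its gene is a target of the lipogenic transcription factors SREBP1c and ChREBP. IL15 is a cytokine that is presented to T cells and natural killer (NK) cells by its receptor and keeps these cells alive, in the liver among other tissues. KIAA1549L encodes a membrane protein of little known function, related to KIAA1549.

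On the Sscrofa11.1 assembly, with RefSeq gene positions matched by symbol, the genes lie on 4 chromosomes. NT5E (ENSSSCG00000004291) spans chr1:54400786-54450743, KIAA1549L (ENSSSCG00000013311) chr2:27237646-27366841, PNPLA3 (ENSSSCG00000027266) chr5:5075608-5092599 and IL15 (ENSSSCG00000009051) chr8:85666963-85740980. On the TPM scale, which corrects the reads for transcript length, the order of the genes differed between the sets. In untreated castrated boars and sows NT5E was at 21.4 ± 5.02 TPM (SD, n = 6), IL15 at 2.76 ± 0.828, PNPLA3 at 1.20 ± 0.350 and KIAA1549L at 0.065 ± 0.014 TPM. In the 5 boars PNPLA3 and IL15 were at 9.18 ± 5.35 and 8.26 ± 2.30 TPM (SD, n = 5), NT5E at 5.32 ± 1.68 and KIAA1549L at 0.446 ± 0.197 TPM. The reads behind these levels were few. The counts per library ran from 43 to 436 for NT5E, from 9 to 384 for PNPLA3, from 17 to 113 for IL15 and from 0 to 53 for KIAA1549L, whose values therefore carry the largest counting error.

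**Figure D1:**
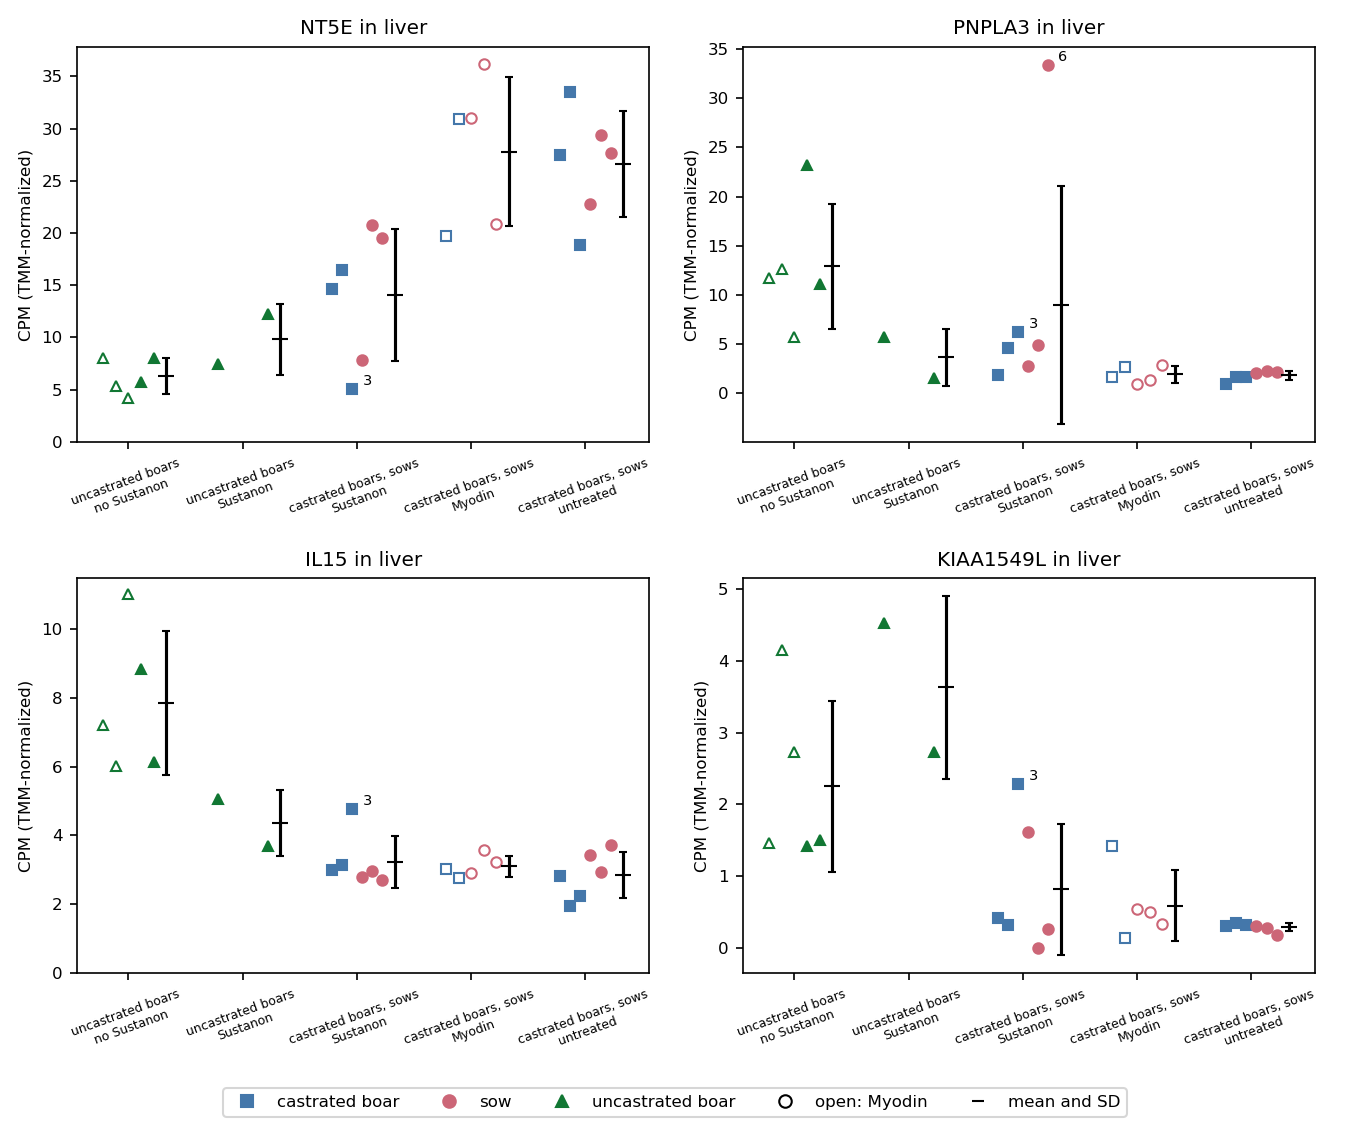
Level of each gene in each of the 24 liver libraries, in CPM after TMM normalization on a linear axis, by animal and treatment. Each point is 1 pig (squares, castrated boars; circles, sows; triangles, uncastrated boars; open symbols, Myodin), the black bars give the mean and SD of each set, and the numbers mark castrated boar + Sustanon 3 and sow + Sustanon 6. IL15 is the gene for which the 5 boars without Sustanon stand clear of all other pigs.

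NT5E was low in the 5 boars. Its level was 5.75 CPM in untreated boar 25, 8.05 in untreated boar 27, and 8.06, 5.37 and 4.20 CPM in boars + Myodin 22, 23 and 24. In the 6 untreated castrated boars and sows it ran from 18.9 to 33.5 CPM with a median of 27.6. In the 5 with Myodin it was 19.8 and 30.9 CPM in castrated boars 8 and 9, and 31.0, 36.2 and 20.9 CPM in sows 10, 11 and 12. None of these 11 livers reached the range of the 5 boars, and the ranges of the untreated and the Myodin livers overlapped over most of their width. With Sustanon, the 6 castrated boars and sows ran from 5.02 to 20.8 CPM with a median of 15.5, and uncastrated boars 19 and 20 had 7.44 and 12.3 CPM. In the mean, the Sustanon livers lay between the 5 boars and the untreated castrated boars and sows, but single livers fell within either range. Castrated boar + Sustanon 3 (5.02 CPM), sow + Sustanon 4 (7.84) and boar + Sustanon 19 fell within the range of the 5 boars, and 16 of the 19 other pigs lay above it. Sows + Sustanon 5 and 6 (20.8 and 19.6 CPM) fell within the range of the untreated castrated boars and sows. The means were 6.28 ± 1.71 CPM (SD, n = 5) in the 5 boars, 26.6 ± 5.12 (n = 6) in untreated castrated boars and sows, 27.8 ± 7.14 (n = 5) with Myodin, 14.05 ± 6.35 (n = 6) with Sustanon and 9.85 ± 3.403 (n = 2) in boars with Sustanon.

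In the order of the 9 group means, NT5E fell from 29.4 CPM in sows with Myodin through untreated castrated boars (26.6), untreated sows (26.6) and castrated boars with Myodin (25.3) to sows and castrated boars with Sustanon (16.1 and 12.04), boars with Sustanon (9.85), untreated boars (6.90) and boars with Myodin (5.88). The ranges of all neighbours in that order overlapped, and the step between neighbours exceeded both groups' SDs only between castrated boars with Myodin and sows with Sustanon.

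PNPLA3 was high in the 5 boars and ran from 5.76 to 23.2 CPM among them. Untreated boars 25 and 27 had 23.2 and 11.2 CPM, and boars + Myodin 22, 23 and 24 had 11.7, 12.6 and 5.76 CPM. The 6 untreated castrated boars and sows ran from 1.004 to 2.32 CPM with a median of 1.91. With Myodin, castrated boars 8 and 9 had 1.69 and 2.70 CPM and sows 10, 11 and 12 had 0.970, 1.39 and 2.87 CPM. The 11 castrated boars and sows without Sustanon all lay below the 5 boars. With Sustanon, the levels were 1.84, 4.64 and 6.25 CPM in castrated boars 1, 2 and 3 and 2.79, 4.88 and 33.4 CPM in sows 4, 5 and 6. Sow + Sustanon 6 had the highest PNPLA3 level of all 24 pigs, on 384 counts, and 5 of these 6 pigs were above all 6 untreated ones. Boars + Sustanon 19 and 20 had 5.73 and 1.60 CPM, both below the range of the 5 boars, the first of them by a narrow margin.

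The mean PNPLA3 level was 12.9 ± 6.37 CPM (SD, n = 5) in the 5 boars, 1.83 ± 0.475 (n = 6) in untreated castrated boars and sows, 1.92 ± 0.829 (n = 5) with Myodin, 8.96 ± 12.1 (n = 6) with Sustanon and 3.67 ± 2.92 (n = 2) in boars with Sustanon. By group mean the order ran from untreated boars (17.2 CPM), sows with Sustanon (13.7) and boars with Myodin (10.04) down to castrated boars and boars with Sustanon (4.24 and 3.67), and then to castrated boars with Myodin, sows, sows with Myodin and castrated boars (2.19, 2.19, 1.74 and 1.47). The place of the sows with Sustanon rests on pig 6. The ranges of neighbours in that order overlapped throughout, and the 1 step larger than both groups' SDs was that from boars with Myodin to castrated boars with Sustanon.

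IL15 was high in the 5 boars and had the least spread of the 4 genes within groups, with a residual SD of 0.27 in log2 CPM against 0.56 for NT5E and 0.92 for PNPLA3 and for KIAA1549L. Untreated boars 25 and 27 had 8.84 and 6.14 CPM, and boars + Myodin 22, 23 and 24 had 7.22, 6.03 and 11.03 CPM. The 6 untreated castrated boars and sows ran from 1.94 to 3.71 CPM with a median of 2.88. With Myodin, castrated boars 8 and 9 had 3.03 and 2.77 CPM and sows 10, 11 and 12 had 2.91, 3.57 and 3.21 CPM. The Myodin values all lay inside the range of the untreated ones. With Sustanon, castrated boars 1, 2 and 3 had 3.003, 3.13 and 4.76 CPM and sows 4, 5 and 6 had 2.79, 2.96 and 2.70 CPM. Boars + Sustanon 19 and 20 had 5.05 and 3.68 CPM. None of the 19 other pigs reached the lowest of the 5 boars, and the nearest to it were boar + Sustanon 19 and castrated boar + Sustanon 3.

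The IL15 means were 7.85 ± 2.11 CPM (SD, n = 5) in the 5 boars, 2.84 ± 0.679 (n = 6) in untreated castrated boars and sows, 3.10 ± 0.311 (n = 5) with Myodin, 3.22 ± 0.766 (n = 6) with Sustanon and 4.36 ± 0.969 (n = 2) in boars with Sustanon. Boars with Myodin and untreated boars led the order of group means (8.09 and 7.49 CPM) with overlapping ranges, and the step from them to boars with Sustanon (4.36 CPM) was the only one at which neighbouring ranges did not overlap. Castrated boars with Sustanon, sows, sows with Myodin, castrated boars with Myodin, sows with Sustanon and castrated boars followed at 3.63, 3.36, 3.23, 2.90, 2.82 and 2.33 CPM, each overlapping the next.

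KIAA1549L was near its detection limit in most castrated boars and sows and was above all untreated ones in each of the 7 uncastrated boars. Untreated boars 25 and 27 had 1.41 and 1.51 CPM, and boars + Myodin 22, 23 and 24 had 1.46, 4.15 and 2.73 CPM, on 15 to 44 counts. The 6 untreated castrated boars and sows had 2 to 4 counts each, or 0.185 to 0.342 CPM with a median of 0.302. With Myodin, castrated boars 8 and 9 had 1.42 and 0.142 CPM and sows 10, 11 and 12 had 0.539, 0.496 and 0.338 CPM. Castrated boar + Myodin 8, with 16 counts, lay within the range of the 5 boars and the other 4 below it. With Sustanon, castrated boars 1, 2 and 3 had 0.417, 0.324 and 2.29 CPM and sows 4, 5 and 6 had 1.61, 0 and 0.261 CPM. Boars + Sustanon 19 and 20 had 4.53 and 2.73 CPM, so that boar 19 had the highest level of all 24 pigs.

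For KIAA1549L the uncastrated boars with Sustanon were therefore not below those without it. The means were 2.25 ± 1.19 CPM (SD, n = 5) in the 5 boars, 0.288 ± 0.0544 (n = 6) in untreated castrated boars and sows, 0.588 ± 0.493 (n = 5) with Myodin, 0.817 ± 0.914 (n = 6) with Sustanon and 3.63 ± 1.27 (n = 2) in boars with Sustanon. The order of the group means was boars with Sustanon, boars with Myodin, untreated boars (3.63, 2.78 and 1.46 CPM), then castrated boars with Sustanon, castrated boars with Myodin and sows with Sustanon (1.01, 0.783 and 0.624 CPM), then sows with Myodin, castrated boars and sows (0.458, 0.320 and 0.256 CPM), and the ranges of all neighbours overlapped.

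The difference between the 5 boars and the 11 castrated boars and sows without Sustanon was estimated with edgeR in one fit of all 24 libraries and all 8754 genes, as a log2 fold change between equally weighted group means. It was -2.08 (SE 0.30) for NT5E, 2.80 (SE 0.45) for PNPLA3, 1.41 (SE 0.16) for IL15 and 2.26 (SE 0.55) for KIAA1549L, on the log2 scale. In this comparison 97 of the 8754 genes, or 1.11%, had an adjusted p under 0.05 and a log2 fold change of at least 1 in either direction, 56 of them higher and 41 lower in boars. All 4 genes are among the 97, which their selection fixed, and nothing is read from that count. KIAA1549L was no longer among the genes called with limma, without the 3 libraries with Y-linked counts against their label, without boars + Myodin 23 and 24, or in 4 of the 24 fits that left out 1 pig (castrated boar + Myodin 9, boar + Myodin 23, and untreated boars 25 and 27). The number of genes called turned on single boars: it was 36 without boar 27, 37 without boar 25 and 180 without boar + Myodin 22. Over the fits that left out 1 pig, the log2 fold change ran from -2.23 to -1.96 for NT5E and from 2.49 to 3.01 for PNPLA3. It ran from 1.27 to 1.53 for IL15 and from 2.03 to 2.84 for KIAA1549L. The genes were selected on this difference, so no stability is read from these ranges. The summed level of hepatocyte markers ran from 102871 to 160663 CPM with a median of 147299 in the 5 boars, and from 115139 to 225140 CPM with a median of 186720 in untreated castrated boars and sows, of which 5 of 6 lay above all 5 boars. Albumin was the largest part of this sum. The boar log2 fold change was -0.43 for ALB (albumin), -0.31 for FGB, -0.08 for APOB, -0.05 for APOA1 and 0.08 for TTR. The lowest adjusted p among these markers was 0.251 in edgeR. The part of these markers in the differences of the 4 genes was not tested. The 5 boars include 3 with Myodin, whose part in these differences was not tested either. For KIAA1549L castrated boar + Myodin 8 (1.42 CPM) was level with boar 25 (1.41 CPM).

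**Figure D2:**
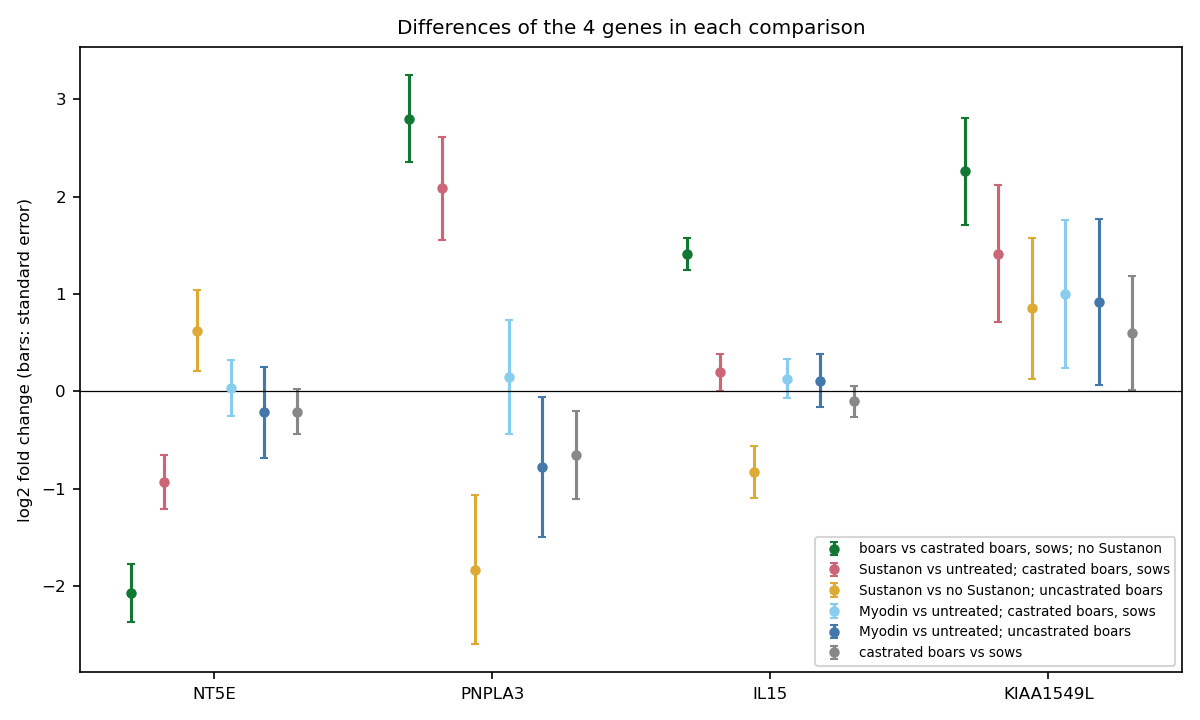
Log2 fold change of each gene in 6 comparisons of the 9 groups, as points with bars of 1 standard error on each side, from one edgeR fit of 24 libraries. The choice of the genes favours a large difference between the 5 boars and castrated boars and sows and small ones elsewhere, so the order of the comparisons is a description, in which IL15 is at 0.19 and PNPLA3 at 2.08 with Sustanon in castrated boars and sows.

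Sustanon was compared with no treatment in castrated boars and sows, 6 livers against 6. The log2 fold change was -0.94 (SE 0.28) for NT5E, 2.08 (SE 0.53) for PNPLA3, 0.19 (SE 0.19) for IL15 and 1.41 (SE 0.71) for KIAA1549L. A small value was asked for by the choice of the genes, and IL15 had the smallest of the 4. NT5E was lower with Sustanon in the mean, and PNPLA3 and KIAA1549L were higher. This comparison shares its untreated livers with the boar comparison. In it 178 of 8754 genes, or 2.03%, passed the same thresholds, among them 1 of the 4 (PNPLA3), a count on which nothing rests because the choice of the 4 used this contrast. PNPLA3 was no longer called with limma, without the 3 libraries (log2 fold change 2.10, SE 0.78, as large as with them but less precise), or in 9 of the 24 fits that left out 1 pig. The size of 2 of these values depended on single pigs. Without sow + Sustanon 6 the log2 fold change of PNPLA3 was 1.17, and without sow + Sustanon 4 that of KIAA1549L was 0.39. Among the 97 genes of the boar comparison, 12 had a Sustanon log2 fold change under 0.5 in size, a limit set after the values were seen, and IL15 is the 1 of the 4 genes among these 12.

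In uncastrated boars, 2 livers with Sustanon were compared with 5 without. The log2 fold change was 0.62 (SE 0.41) for NT5E, -1.83 (SE 0.76) for PNPLA3, -0.83 (SE 0.27) for IL15 and 0.85 (SE 0.72) for KIAA1549L. PNPLA3 and IL15 were thus lower in both boars with Sustanon than in any of the 5, whereas NT5E was within their range in boar 19 and above it in boar 20. With 2 livers, the size of each value depended on the pig left out. Without boar 19, it was 0.94 for NT5E, -3.03 for PNPLA3, -1.08 for IL15 and 0.44 for KIAA1549L, and without boar 20 it was 0.22 for NT5E, -1.20 for PNPLA3, -0.63 for IL15 and 1.17 for KIAA1549L. PNPLA3 is the gene whose Sustanon value had opposite signs in uncastrated boars and in castrated boars and sows with a size over 1 in both; the difference between these values was not tested.

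The pigs with Sustanon were not alike. Castrated boar + Sustanon 3 lay beyond all 6 untreated castrated boars and sows, on the side of the boars, for all 4 genes, and reached the range of the 5 boars for NT5E, PNPLA3 and KIAA1549L. Its hepatocyte markers summed to 145408 CPM, against 162648 to 240246 CPM in the other castrated boars and sows with Sustanon. Its markers of T and NK cells, listed below, summed to 56.6 CPM, against 32.0 to 40.9 CPM. Both sums lay within the range of the untreated ones, and their part in its levels was not tested. Sow + Sustanon 4 was beyond the untreated livers for NT5E, PNPLA3 and KIAA1549L but not for IL15, and sow + Sustanon 6 was extreme for PNPLA3 while its KIAA1549L and IL15 levels lay within the untreated range. Of the 6 castrated boars and sows with Sustanon, 1 was beyond the untreated livers for 4 genes, 1 for 3, 2 for 2 and 2 for 1. Of the 5 with Myodin, each was beyond the untreated livers on the boars' side for exactly 1 gene. In sows + Myodin 10 and 11 that gene was KIAA1549L, on 5 counts each against 2 to 4 in the untreated livers. Boar + Sustanon 19 was beyond the untreated livers for all 4 genes and boar + Sustanon 20 for 2, NT5E and KIAA1549L. The share of all genes that lay beyond the same 6 livers in each pig was not computed, so nothing is read from these counts.

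**Figure D3:**
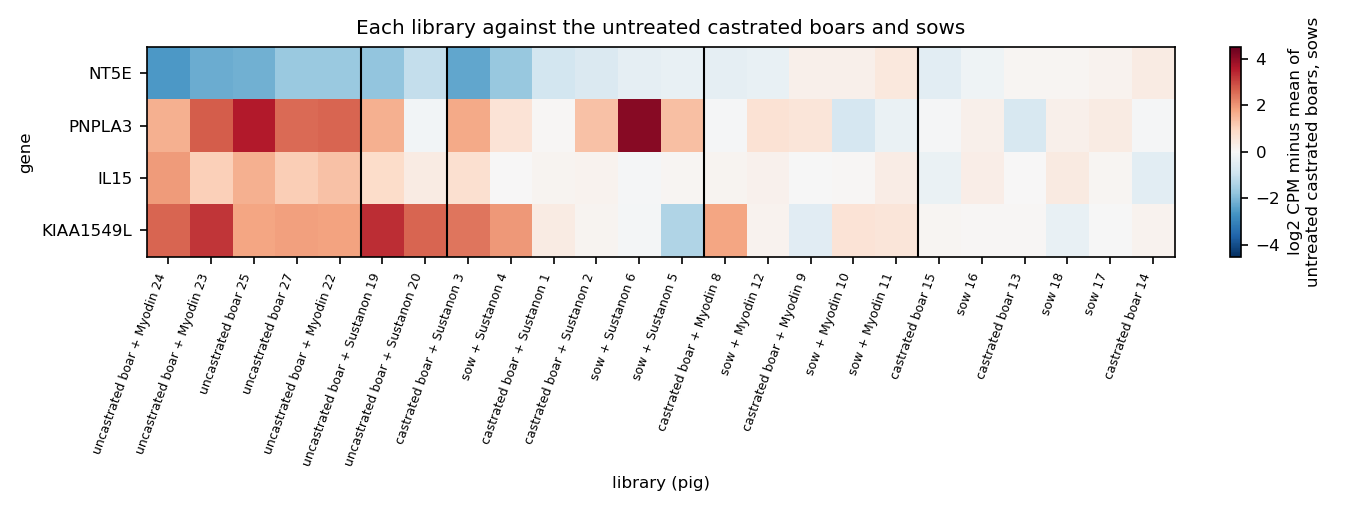
Level of each gene in each pig as log2 CPM minus the mean of the 6 untreated castrated boars and sows (colour scale, red higher, blue lower). Vertical lines part the 5 boars, boars with Sustanon, and castrated boars and sows with Sustanon, with Myodin and untreated, each sorted by NT5E, and castrated boar + Sustanon 3 lies on the side of the 5 boars in all 4 rows, within their range for NT5E, PNPLA3 and KIAA1549L and short of it for IL15.

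The choice of the genes pooled pigs with Myodin with untreated pigs, both among the boars and among the castrated boars and sows, which favours genes with little difference between them. The Myodin differences are therefore also given as a description. In castrated boars and sows, with 5 livers against 6, the log2 fold change was 0.04 for NT5E (95% interval -0.56 to 0.64), 0.14 for PNPLA3 (-1.09 to 1.37), 0.13 for IL15 (-0.29 to 0.54) and 0.998 for KIAA1549L (-0.58 to 2.58). The value for KIAA1549L rests on castrated boar + Myodin 8, without which it was -0.16. In edgeR 3 of 8754 genes (0.0343%) were called and none of the 4, a count from which nothing is read.

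In uncastrated boars, with 3 livers with Myodin and 2 untreated, the log2 fold change was -0.22 for NT5E (95% interval -1.20 to 0.76), -0.78 for PNPLA3 (-2.28 to 0.73), 0.11 for IL15 (-0.46 to 0.68) and 0.91 for KIAA1549L (-0.87 to 2.70). The value for PNPLA3 was -0.14 without untreated boar 25 and -1.21 without untreated boar 27. The Myodin value in boars minus that in castrated boars and sows was -0.25 for NT5E, -0.92 for PNPLA3, -0.02 for IL15 and -0.08 for KIAA1549L. Among all genes 2 of 8754 (0.0228%) were called in edgeR for Myodin in boars and 11 (0.126%) for this interaction, none of the 4 in either, and nothing is read from these counts.

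Castrated boars and sows were pooled in the choice of the genes as well, and the 3 libraries with Y-linked counts against their label enter their comparison, 8 livers against 9 over the 3 treatments. The log2 fold change of castrated boars against sows was -0.21 (95% interval -0.70 to 0.28) for NT5E, -0.66 (-1.61 to 0.30) for PNPLA3, -0.11 (-0.44 to 0.23) for IL15 and 0.60 (-0.63 to 1.83) for KIAA1549L. The sign for KIAA1549L turned without castrated boar + Myodin 8 (-0.18), and the value for PNPLA3 was -0.04 without sow + Sustanon 6. In edgeR 6 of 8754 genes (0.0685%) were called, none of them 1 of the 4, and nothing is read from that count.

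Across the 24 livers, which share groups and treatments, the levels of NT5E ran against those of the other genes. Pearson's r of the log2 CPM, given as a description, was -0.81 for NT5E and KIAA1549L, -0.79 for NT5E and IL15, -0.63 for NT5E and PNPLA3, 0.66 for IL15 and KIAA1549L, 0.59 for PNPLA3 and IL15 and 0.33 for PNPLA3 and KIAA1549L. After the mean of each of the 9 groups was taken out, r between NT5E and KIAA1549L was -0.78 and that between NT5E and IL15 -0.53, while those of PNPLA3 with NT5E, IL15 and KIAA1549L were 0.0019, 0.07 and -0.09. NT5E and KIAA1549L thus varied in opposite directions also among pigs of a group, as in castrated boar + Sustanon 3 and sow + Sustanon 4, the 2 lowest for NT5E and the 2 highest for KIAA1549L among the castrated boars and sows with Sustanon.

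The genes most like each of the 4 across the 24 libraries were taken as the 3 with the highest Pearson's r of log2 CPM among genes whose log2 CPM averaged 1 or more. For NT5E they were CD58 (r = 0.80), RTL4 (0.79) and TEF (0.78), of which TEF encodes a transcription factor of circadian output and CD58 a cell adhesion protein that binds CD2. For PNPLA3 they were UTP4, NSDHL and ATF4 (each 0.71), of which NSDHL encodes an enzyme of cholesterol synthesis and ATF4 the transcription factor of the integrated stress response. For IL15 they were IRF8 (0.76), a transcription factor of myeloid cells, PPP1R1A (0.73) and CITED2 (0.72). For KIAA1549L they were BCAT1 (0.77), an enzyme of branched-chain amino acid breakdown, SLC23A1 (0.77), a vitamin C transporter, and APBB3 (0.76). On the log2(TPM + 1) scale NSDHL ranked only 12th for PNPLA3, and BCAT1, SLC23A1 and APBB3 ranked 11th, 17th and 15th for KIAA1549L. With the mean of each group taken out, r was 0.36, 0.09 and 0.39 for CD58, RTL4 and TEF with NT5E, so that RTL4 was alike almost only between groups, and 0.32 to 0.68 for the other 9 genes with theirs. These r rest on 24 points in 9 groups and were the highest of 6960 candidates (6961 for KIAA1549L).

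The list around NT5E was that of the adenosine pathway. Of 22 listed genes of ATP and AMP breakdown, adenosine uptake, conversion and reception, 11 were in the tables and 8 could be tested. In the boar comparison none of the 8 passed both thresholds in edgeR, DESeq2 or limma, beside 1.11% of all genes in edgeR, 2 had an unadjusted p under 0.05 beside 20.5% of all genes tested, and the median log2 fold change was 0.07 beside 0.01 for all genes tested. SLC29A1, an adenosine transporter, had a log2 fold change of -0.57 (SE 0.11, adjusted p = 0.00725 in edgeR), under the fold threshold, with a mean of 68.7 CPM in the 5 boars and 101 in untreated castrated boars and sows. ENPP1, which releases AMP from ATP and so acts one step before NT5E, was at 0.23 (adjusted p = 0.403), and ENPP3, of the same role, at -0.66 (SE 0.50, adjusted p = 0.489). SLC28A2, a nucleoside transporter with the largest value of the list, was at 1.001 (SE 0.52, adjusted p = 0.294), and ADORA3, an adenosine receptor, at 0.31 (adjusted p = 0.174). SLC28A2 was scarce, with a mean of 0.90 CPM in the 5 boars and 0.42 in untreated castrated boars and sows. With Sustanon in castrated boars and sows none of the 8 passed both thresholds by the 3 tools (2.03% of all genes in edgeR) and 4 had an unadjusted p under 0.05 beside 19.8% of all genes tested, with ENPP1 at 0.56 (SE 0.16, adjusted p = 0.0452 in edgeR). ENPP3 was at -1.32 (SE 0.53, adjusted p = 0.161), opposite in sign to ENPP1, and SLC28A2, with a mean of 1.09 CPM with Sustanon, at 1.38 (SE 0.58, adjusted p = 0.180).

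Genes of lipid droplets and the patatin-like family, the list around PNPLA3, held 26 names, of which 15 were in the tables and 14 were tested. SREBF1 (SREBP1c), FASN and SCD, also listed, were absent under these symbols. None of the 14 passed both thresholds in the boar comparison in edgeR, DESeq2 or limma, beside 1.11% of all genes in edgeR, 6 had an unadjusted p under 0.05 (20.5% of all genes tested), and the median log2 fold change was 0.01 beside 0.01 for all genes tested. PNPLA2, the main triglyceride lipase of droplets, was at -0.56 (SE 0.21, adjusted p = 0.121) and PNPLA8 at -0.44 (SE 0.13, adjusted p = 0.0584) in edgeR, and PNPLA6, also of the family, was at 0.07 (SE 0.12, adjusted p = 0.792). Of the droplet coat proteins, PLIN2 was at 0.45 (SE 0.41, adjusted p = 0.565) and PLIN4 at -0.76 (SE 0.29, adjusted p = 0.142). MLXIPL, which encodes ChREBP, was at 0.09 (adjusted p = 0.804) and NR1H3, which encodes the sterol sensor LXR alpha, at 0.29 (SE 0.10, adjusted p = 0.108). With Sustanon in castrated boars and sows none passed both thresholds in edgeR (2.03% of all genes) or DESeq2 and 1 did in limma, 7 had an unadjusted p under 0.05 (19.8% of all genes tested), and 2 of the 14 passed the adjusted p alone (466 of all 8754 genes, 5.32%). These were PLIN5, a droplet protein of cells that burn fat, at 0.83 (SE 0.19, adjusted p = 0.0124), and DGAT1, an enzyme of triglyceride synthesis, at -0.64 (SE 0.16, adjusted p = 0.0236). PLIN4 was at -0.93 (SE 0.30, adjusted p = 0.0767).

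Of 23 listed genes of the IL15 receptor, its signalling and related cytokines, 10 were in the tables and all 10 were tested. In the boar comparison none passed in edgeR, DESeq2 or limma, beside 1.11% of all genes in edgeR, 4 had an unadjusted p under 0.05 (20.5% of all genes tested), and the median log2 fold change was 0.09 beside 0.01 for all genes tested. Without boars + Myodin 23 and 24, chosen after seeing the data, the median was -0.15, 2 of the 10 values were above 0 and 1 had an unadjusted p under 0.05. The receptor chains IL2RB and IL2RG were at 0.33 (SE 0.16, adjusted p = 0.239) and 0.36 (SE 0.16, adjusted p = 0.189), the kinase JAK3 at 0.42 (SE 0.14, adjusted p = 0.0877) and SOCS1, an inhibitor of cytokine signalling, at -0.61 (SE 0.24, adjusted p = 0.141). The receptor gene IL15RA and the signalling genes STAT5A and STAT5B, also listed, were absent under these symbols. IRF1, a regulator of IL15, was at 0.10 (SE 0.16, adjusted p = 0.766). With Sustanon in castrated boars and sows none passed in any of the 3 tools (2.03% of all genes in edgeR) and 3 had an unadjusted p under 0.05 (19.8% of all genes tested), with SOCS1 at -0.80 (SE 0.24, adjusted p = 0.0597 in edgeR). KIAA1549, the paralog of KIAA1549L, was not analysed here.

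**Figure D4:**
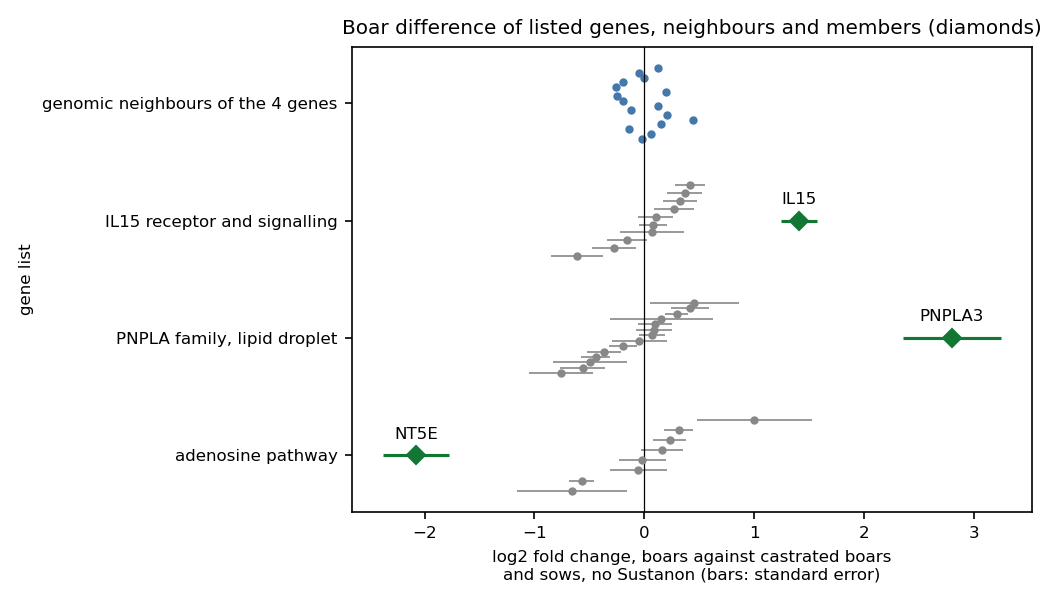
Log2 fold change between boars and castrated boars and sows, all without Sustanon, for NT5E, PNPLA3 and IL15 (diamonds), the tested genes of the list around each (grey points) and the 16 tested genes nearest to the 4 on their chromosomes (blue points). Bars are 1 standard error on each side, and since NT5E, PNPLA3 and IL15 were chosen for a large value in this comparison, their distance from the other points is a description of that choice.

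Markers of T and NK cells, the cells that respond to IL15, were CD3E, CD3D, CD8A, CD2, NKG7 and NCR1 (6 of 8 listed). Their summed level was 106 and 104 CPM in boars + Myodin 23 and 24, 34.0 to 44.1 CPM in the other 3 of the 5 boars, and 32.0 to 62.0 CPM in the 19 other pigs. The same 2 boars had the highest sums of the 4 macrophage markers in the tables among the 5 boars, at 1311 and 1167 CPM against 718 to 840. Among the other pigs, sow + Myodin 10 had 1196 CPM, above boar 24. IL15 was lowest of the 5 boars in boar 23 (6.03 CPM) and highest in boar 24 (11.03 CPM), and it was 7.22, 8.84 and 6.14 CPM in boars 22, 25 and 27. The part of T and NK cells in the IL15 levels was not tested. In a fit without boars 23 and 24, chosen after seeing the data, the boar difference was -1.86 for NT5E, 2.91 for PNPLA3, 1.33 for IL15 and 1.80 for KIAA1549L on the log2 scale, while the number of genes called in that comparison was 30 in place of 97.

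The 16 neighbours of the 4 genes on their chromosomes were the 2 nearest tested genes on each side, 3.06 to 1066 kb away. Genes in between that were not tested are left out. The neighbours had boar log2 fold changes from -0.26 to 0.44, and their lowest adjusted p in edgeR was 0.0867. The largest, 0.44 (adjusted p = 0.0867), belonged to SAMM50, which encodes a subunit of the mitochondrial outer membrane machinery and lies 3.06 kb from PNPLA3. SNX14, 9.90 kb from NT5E, was at -0.14 (adjusted p = 0.424), FBXO3, 54.2 kb from KIAA1549L, at -0.19 (adjusted p = 0.372) and INPP4B, 112 kb from IL15 and with a mean of only 1.07 CPM, at -0.19 (adjusted p = 0.786).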

How the data were processed

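The labels put 24 pig livers in 9 groups by animal and treatment. Polyadenylated RNA was sequenced as stranded libraries, and the authors trimmed reads, mapped them with STAR 2.5 to the pig genome (Sscrofa11.1 in the submitters' processing notes) and deposited a table of raw counts per gene. They also deposited the same genes as log2(TPM + 1) values, from which TPM was recovered with a pseudocount of 1. The counter was not given in the sources used here. The processing notes also name FastQC and DESeq2.

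Counts of 13463 genes were tested with edgeR 4.0.16 (R 4.3.3): filterByExpr by group (8754 genes kept), TMM scaling and quasi-likelihood F tests, in one fit of 24 libraries with a mean per group and contrasts that weight groups equally. Pigs carry numbers of their own that no 2 groups share, so samples were not paired. A gene was called at a Benjamini-Hochberg adjusted p under 0.05 over all genes tested and a log2 fold change of at least 1, the study's fold threshold, in either direction. The SE was the log2 fold change divided by the root of the F statistic, and intervals are 95%. CPM are TMM-normalized, and log2 CPM used a prior count of 2. The p-values measure the spread between pigs, 2 or 3 per group. Alternatives were DESeq2 1.42.0, RLE normalization, no count filter, limma 3.58.1 on the deposited log2 values, no fold threshold, castrated boars and sows pooled, fits without the 3 libraries whose Y-linked counts go against their label, without each pig, and, chosen after seeing the data, without boars + Myodin 23 and 24. On simulated counts for the boar comparison, edgeR recovered 90.48% of genes changed by a log2 of 1.5 and 98.95% of those changed by 2 among 8693 genes, with 1.562% of its calls wrong. The simulation gave every gene the same dispersion, changed none of the scarcest genes and held no other group difference. In the real libraries the spread differed by gene and calls turned on single boars, so these rates need not hold there.

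The values of the 4 genes for Myodin, its interaction and castrated boars against sows, planned as tests, are given without p because the choice of the genes pooled these pigs. The 4 genes, the gene lists and the comparisons were chosen with earlier results of these data known. The rule for named genes took the 4 genes, the 3 most similar to each (highest r of log2 CPM), the list genes called with boars or Sustanon, and the receptors, regulators and family members of each list. SLC29A1, SLC28A2, ENPP1, ENPP3, PLIN2, PLIN4, PLIN5, DGAT1, JAK1, JAK3, SOCS1, IL7, IL18, NKG7, KLRK1 and the neighbours on the chromosomes were named after their values were seen. Symbols came from the tables and, for 359 genes, from a table of gene names, and 3420 genes had none. Depth was 9267780 to 14017276 counts per library. KIAA1549L had 0 to 5 counts in most castrated boars and sows, so that its CPM there are the least precise.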

Additional observations from a re-analysis of the deposited data

Results flagged for a closer look

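Within the sets of 5 or 6 pigs, 3 pigs stood apart from the rest of their set in 1 gene each, by the gap to the nearest other pig as a share of the whole range. PNPLA3 in sow + Sustanon 6 (33.4 CPM, next 6.25) had a gap of 0.860 of the range of the 6 castrated boars and sows with Sustanon in CPM, and of 0.588 in log2 CPM, under the critical value of 0.625. IL15 in castrated boar + Sustanon 3 (4.76 CPM, next 3.13) had a gap of 0.788 in CPM and 0.738 in log2 CPM in the same set. KIAA1549L in sow 18 (2 counts, the other 5 untreated castrated boars and sows 3 or 4) had a gap of 0.651 in log2 CPM and 0.610 in CPM. Chance flags about 1 in 20 such sets, and 16 were looked at on both scales. Sow + Sustanon 6 is also the pig whose header number is that of another group, and sow 18 one of the 3 with Y-linked counts against their label. What part these facts have in the levels was not tested.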

How the results depend on the processing

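The boar difference of each of the 4 genes kept its direction under all alternatives run. Their selection in these same libraries favours that, so nothing is read from it. On the deposited log2(TPM + 1) values with limma, whose pseudocount shrinks scarce genes, the boar difference was 0.37 for KIAA1549L. The Sustanon difference in castrated boars and sows was 1.16 for PNPLA3 and 0.14 for KIAA1549L on these values. Some signs turned, most of them of values near 0 and that of KIAA1549L for Myodin in boars from 0.91. With limma, IL15 was at -0.078 for Myodin in boars and KIAA1549L at 0.14 for the Myodin interaction. Without the 3 libraries whose Y-linked counts go against their label, NT5E was at -0.13 for Myodin in castrated boars and sows. Without boars + Myodin 23 and 24, which leaves boar 22 alone in its group and assumes that it varies like the other groups, Myodin in boars was 0.22 for NT5E, -0.061 for IL15 and -0.0067 for KIAA1549L, and the interaction was 0.19 for NT5E. With group means removed, r was 0.0019 for NT5E and PNPLA3 and -0.092 for PNPLA3 and KIAA1549L.

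Leaving out 1 pig at a time, the Sustanon difference ran from 1.17 to 2.32 for PNPLA3 and 0.39 to 1.71 for KIAA1549L in castrated boars and sows, and from -3.03 to -1.20 for PNPLA3 in boars. Myodin in castrated boars and sows ran from -0.14 to 0.18 for NT5E, -0.15 to 0.29 for PNPLA3 and -0.16 to 1.45 for KIAA1549L, and in boars from -0.52 to 0.042 for NT5E, -1.21 to -0.14 for PNPLA3 and -0.18 to 0.41 for IL15. The interaction ran from -0.56 to 0.0039 for NT5E, -1.35 to -0.28 for PNPLA3, -0.31 to 0.28 for IL15 and -0.54 to 1.07 for KIAA1549L, and castrated boars against sows from -0.81 to -0.043 for PNPLA3 and -0.18 to 1.28 for KIAA1549L. KIAA1549L thus turned sign from 0.998 and 0.60 without castrated boar + Myodin 8.

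Counts of called genes also moved. For the boar comparison (97) they were 64 with limma, 419 with no fold threshold, 30 without boars 23 and 24, and 36 to 180 leaving out 1 pig. For Sustanon in castrated boars and sows (178) they were 117 with limma, 466 with no fold threshold and 52 without the 3 libraries. For Sustanon in boars (4) they were 49 with DESeq2, 2 without the 3 libraries, 133 without boars 23 and 24, and 0 to 80 leaving out 1 pig. For Myodin in castrated boars and sows (3) they were 28 with DESeq2, 0 with limma, 0 without the 3, 5 with no fold threshold, 7 without boars 23 and 24, and 0 to 6 leaving out 1 pig. For Myodin in boars (2) they were 32 with DESeq2, 4 with limma, 0 with pooled groups, 0 without boars 23 and 24, and 1 to 99 leaving out 1 pig. For castrated boars against sows (6) they were 13, 0, 10 and 3 with DESeq2, with limma, without the 3 and without boars 23 and 24, and 0 to 9 leaving out 1 pig. For the interaction (11) they were 80 with DESeq2, 1 without the 3, 2 without boars 23 and 24, and 3 to 176 leaving out 1 pig. The cause was not tested. No paired analysis was possible because no 2 groups share a pig number.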

Other observations

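All 10 tested genes of the IL15 list had a positive Myodin value in boars (median log2 fold change 0.60, all genes tested 0.03) and a positive interaction (median 0.86, all genes tested 0.02), but none passed the adjusted test in edgeR (0.0228% and 0.126% of all genes did) or was called by DESeq2 or limma, with 4 and 7 of the 10 at an unadjusted p under 0.05, beside 9.26% and 12.4% of all genes tested. The genes given here were singled out after the values were seen. NKG7, a protein of cytotoxic granules, was at 22.3 and 23.8 CPM in boars + Myodin 23 and 24 and at 11.5, 10.5 and 7.34 CPM in boar + Myodin 22 and untreated boars 25 and 27. IRF1, an interferon-induced transcription factor, was at 72.2 and 79.7 CPM in boars 23 and 24 and at 32.7, 30.1 and 30.2 CPM in boars 22, 25 and 27. IL2RG, JAK3, IL7 and JAK1 were also higher in boars 23 and 24 than in the other 3, with IL2RG at 17.3 and 16.8 CPM against 8.21 to 10.5, JAK3 at 36.8 and 30.1 CPM against 15.5 to 21.8, IL7 at 7.92 and 7.03 CPM against 3.98 to 4.93, and JAK1 at 304 and 214 CPM against 189 to 209. SOCS1, IL2RB, KLRK1 and IL18 were not above the other 3 in both: SOCS1 was at 9.14 and 8.79 CPM, between 7.07 in boar 25 and 11.4 in boar 22, and IL2RB was at 18.8 CPM in boar 24, below boar 25 (21.2). Boars 23 and 24 had the highest T and NK cell marker sums of all 24, and without them the list medians were 0.19 for Myodin in boars and 0.28 for the interaction, with 0 and 1 of the 10 at an unadjusted p under 0.05. IL15 itself was at 6.03 CPM in boar 23 and 11.03 CPM in boar 24.

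The red cell markers HBB, AHSP and ALAS2 were lowest, in sum, in boar + Myodin 24 (169 CPM), where the other 4 of the 5 boars had 428 to 1764 CPM and the untreated castrated boars and sows 878 to 2422 CPM. Boar 24 also had the lowest hepatocyte marker sum of all 24 libraries, 102871 CPM, of which albumin is the largest part. It had the lowest NT5E and highest IL15 level of the 5 boars. The part of blood or cell content in these levels was not tested.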
